A study of Mus musculus with 70 samples.

Results

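Among 50789 gene identifiers in the count table, 10 genes were picked because they changed in the brain, or across tissues, of mice that lack the short isoform of Capicua: Hapln2, Gm19439, Enpp6, Gsn, Serpinb1a, Sp7, Col5a3, Slc24a2, Prrt4 and Arl5a. All 10 were found in the table. Their levels are followed here in each of 9 groups of mice and set beside the response to loss of the long isoform. The genotypes were Cic-S-KO (short isoform lost), Cic-L-KO (long isoform lost) and WT, the wild-type littermates of both lines taken as a single control group. Lungs were taken on postnatal day 6, and the brain regions, cortex and cerebellum, at 12 weeks. There were 8 samples in a group, except Cic-S-KO cortex and Cic-S-KO cerebellum with 7 each, so that 70 libraries of polyadenylated RNA were sequenced. How each isoform was deleted, the sex of the animals and the line from which a given WT mouse came are not given in the sources used here. The labels number the samples of a group without saying that they are separate animals, so p-values measure the spread between these samples.

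Capicua, encoded by Cic, is a transcriptional repressor that binds DNA through an HMG box and keeps genes of the growth factor response silent until signalling through MAP kinases relieves it. Its short and long isoforms share the DNA-binding part and differ at the amino terminus, and in brain Capicua works in a complex with ataxin-1. Several of the 10 genes are known from oligodendrocytes, the cells that wrap axons of the central nervous system in myelin and leave gaps, the nodes of Ranvier, where the action potential is renewed.

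The choice of the genes rests on the Cic-S-KO libraries. Their Cic-S-KO values in lung, cortex and cerebellum are therefore given as a description with no test, since it is not recorded which gene was picked on which tissue. The Cic-L-KO libraries did not choose the genes and were tested, but they were compared with the same WT samples. Levels are given as CPM, library-scaled counts after TMM normalisation, and a gene was called when its adjusted p in the edgeR quasi-likelihood test across all genes was under 0.05. Because whole tissue was sequenced, fewer cells of a type and less RNA per cell cannot be told apart.

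Total counts per sample ran from 17798655 to 35523037, with a median of 24767117. The lung markers Sftpc, Sftpb, Ager and Scgb1a1 were at a median of 1282 CPM or more in lung and under 1 CPM in both brain regions. The cerebellar markers Pcp2, Gabra6 and Cbln1 stood at medians of 154, 593.5 and 921 CPM in cerebellum, and the cortical markers Tbr1 and Fezf2 at 150.9 and 32.2 CPM in cortex. Other listed markers were shared between tissues. Hopx and Foxj1 had medians of 176.6 and 47.52 CPM in lung and 93.25 and 20.46 CPM in cerebellum. Slc17a7 and Cux2 had medians of 1589 and 129.9 CPM in cortex and 566.4 and 59.24 CPM in cerebellum. Counts were summed over isoforms, so total Cic RNA could not show which isoform was lost. It was between 150.3 and 173.3 CPM in WT cortex, 236.8 and 260.5 CPM in Cic-S-KO cortex and 268.9 and 317.7 CPM in Cic-L-KO cortex, and genotypes are given as labelled. The library labelled Cic-S-KO lung replicate 5 stood apart in brain markers. Its summed level of 9 neuron markers was 109.3 CPM, against at most 74.18 CPM in the other lung libraries, and that of 5 cortical markers was 18.86 CPM, against at most 8.09 CPM. All lung samples carry the label of one batch and all brain samples that of another, so genotypes were compared within a tissue.

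The genes fall into different positions in the range of expression. Per kilobase of exon, Slc24a2 had the highest mean level of the 10 in WT cortex with 64.6 CPM per kb, followed by Arl5a with 19.4 and Gsn with 18.9. Hapln2 stood at 7.07 CPM per kb, Serpinb1a at 3.24, Gm19439 at 2.82, Enpp6 at 1.69 and Prrt4 at 0.762. Sp7 with 0.345 and Col5a3 with 0.164 CPM per kb were the least abundant there. In WT lung Gsn led with 169 CPM per kb, while Hapln2 and Slc24a2, at 0.0359 and 0.0605 CPM per kb, were close to absent.

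**Figure D1:**
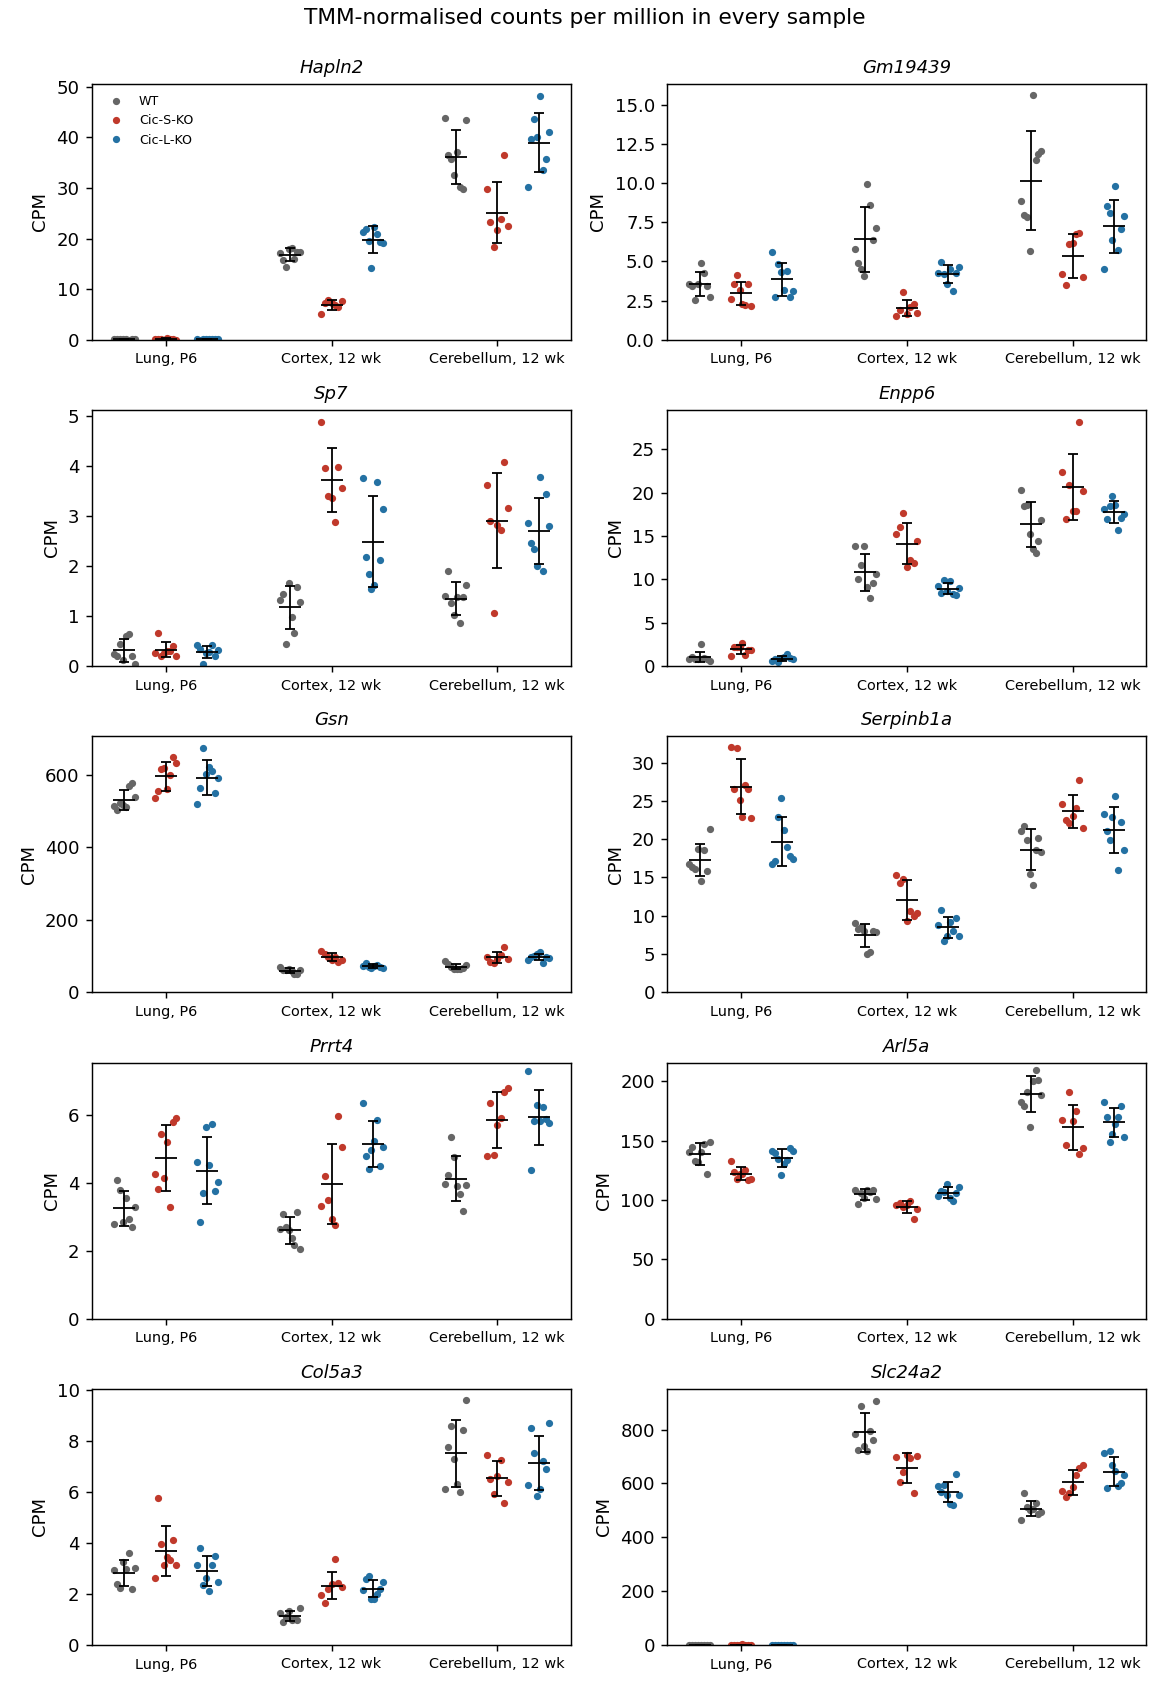
Level of each of the 10 genes in every sample, in TMM-normalised CPM (linear axes from 0), by tissue and genotype; points are samples and the bars give the mean and SD of each group (8 samples; 7 in the Cic-S-KO brain groups). In cortex the 7 Cic-S-KO samples of Hapln2 lie between 4.99 and 7.80 CPM, below all WT samples, and Hapln2 is near 0 in lung.

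Hapln2 was lower in Cic-S-KO brain and not in Cic-L-KO brain. It encodes a link protein that ties hyaluronan to proteoglycans such as brevican and versican in the matrix around nodes of Ranvier. The gene (ENSMUSG00000004894.10) lies on the minus strand at chr3:88021750-88027583 in GRCm38. Hapln2 and Enpp6 went opposite ways in Cic-S-KO brain and both hold the motif described next. The 250 bases before the RefSeq start of each are shown for that reason (GRCm38.p6). They are chr3:88027512-88027761 on the minus strand for Hapln2 and chr8:46986637-46986886 on the plus strand for Enpp6. The RefSeq start of Hapln2 lies inside the gene as annotated above, which reaches chr3:88027583. The last part of the Hapln2 stretch, with its capitals, is therefore inside that gene model and not before it. Capitals mark the letters ACAATG, the core that SOX proteins and other HMG-box factors can bind. The windows of Gsn, which was also higher in Cic-S-KO brain, hold no such letters.
Hapln2: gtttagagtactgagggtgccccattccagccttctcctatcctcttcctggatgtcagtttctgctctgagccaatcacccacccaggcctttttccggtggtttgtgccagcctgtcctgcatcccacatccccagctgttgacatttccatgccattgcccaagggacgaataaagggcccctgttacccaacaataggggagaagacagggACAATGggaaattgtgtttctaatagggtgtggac
Enpp6: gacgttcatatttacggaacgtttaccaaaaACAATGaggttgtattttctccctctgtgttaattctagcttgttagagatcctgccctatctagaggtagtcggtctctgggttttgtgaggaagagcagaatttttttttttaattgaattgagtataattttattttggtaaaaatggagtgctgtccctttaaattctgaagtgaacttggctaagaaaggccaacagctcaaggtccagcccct

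Promoter windows of 300 bases, 250 before to 50 after a RefSeq start, were matched to 7 of the 10 genes and gave 10 windows. Gm19439, Sp7 and Serpinb1a were not matched. The Capicua octamers TGAATGAA, TGAATGGA, TCAATGAA and TCAATGGA, searched on both strands, were in 0 of the 10 windows and in 3.84% of 32851 promoters of the same length. ACAATG or ACAAAG on either strand was in 6 of the 10 windows, belonging to Arl5a, Enpp6, Hapln2, Prrt4 and Slc24a2, and in 28.6% of all promoters. The GC box GGGCGG, a motif of SP factors, was in 5 windows, belonging to Arl5a, Col5a3 and Gsn, and in 35.7% of all promoters. The SOX core and the Capicua octamers overlap in the letters AATG. A window without a motif lacks only these letters.

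In cortex, Hapln2 ranged from 14.4 to 18.2 CPM in WT (median 17.2), from 4.99 to 7.80 in Cic-S-KO (median 7.22) and from 14.1 to 22.4 in Cic-L-KO (median 20.3). Every Cic-S-KO sample lay below every WT and every Cic-L-KO sample. The log2 fold change in Cic-S-KO against WT was -1.28 (SE 0.090), that is 0.411 of the WT level. In Cic-L-KO it was 0.24 (SE 0.081, adjusted p = 0.0167, edgeR), with 7 of 8 samples above all WT samples and replicate 4 below them. That small increase did not pass when the median deviation of genes of like GC content was removed from each library, a step called the GC correction (0.18, adjusted p = 0.0613, edgeR).

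In cerebellum, where Hapln2 is more abundant, the difference was smaller. It ranged from 29.8 to 43.9 CPM in WT (median 36.1), from 18.3 to 36.5 in Cic-S-KO (median 23.3) and from 30.1 to 48.2 in Cic-L-KO (median 39.8). Of the 7 Cic-S-KO samples, 5 lay below all WT samples, and the groups overlapped. Its log2 fold change was -0.52 (SE 0.129) in Cic-S-KO, with 0.11 (SE 0.122, adjusted p = 0.570, edgeR) for Cic-L-KO. The Cic-S-KO log2 fold change was 0.76 more negative in cortex than in cerebellum (difference -0.76, SE 0.159). In lung Hapln2 had 0 to 13 counts per sample, the highest in Cic-S-KO replicate 5, and was below the filter on low counts in all genotypes.

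Gm19439 lies 3294 bases from Hapln2 on the opposite strand (ENSMUSG00000105843.1, chr3:88030878-88033150, GRCm38) and is a gene model that awaits experimental evidence (class TEC). The 2 genes are transcribed away from each other, and whether strand was used in counting is not given in the sources used here. Levels in cortex ranged from 4.04 to 9.92 CPM in WT (median 6.09), from 1.49 to 3.02 in Cic-S-KO (median 1.88) and from 3.13 to 4.97 in Cic-L-KO (median 4.29). The Cic-S-KO samples were all below the WT and the Cic-L-KO samples, with a log2 fold change of -1.67 (SE 0.175) against WT. Gm19439 also fell in Cic-L-KO cortex, by 0.61 on the log2 scale (SE 0.157, adjusted p = 0.00224, edgeR), although only 2 of 8 samples were below all WT samples.

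Gm19439 in cerebellum ranged from 5.64 to 15.7 CPM in WT (median 10.1), from 3.47 to 6.81 in Cic-S-KO (median 6.12) and from 4.49 to 9.85 in Cic-L-KO (median 7.49). WT was widely spread and overlapped both knockouts. The log2 fold changes were -0.92 (SE 0.200) for Cic-S-KO and -0.49 for Cic-L-KO (SE 0.188, adjusted p = 0.0648, edgeR). Without WT replicate 4 or Cic-L-KO replicate 5 the Cic-L-KO decrease passed the threshold (adjusted p = 0.0201 and 0.0401, edgeR), as it did with DESeq2 (adjusted p = 0.0265). Unlike Hapln2, Gm19439 was measured in lung, at a median of 3.50 CPM for WT, 2.87 CPM for Cic-S-KO and 3.72 CPM for Cic-L-KO. The Cic-S-KO lung log2 fold change was -0.27 (SE 0.174).

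The genes around this pair did not share the pattern as a group. Of 11 other annotated genes within 100000 bases of it, 9 were tested in cortex. In Cic-S-KO Rrnad1 (0.30, adjusted p = 0.0471, edgeR) and Bcan (0.18, adjusted p = 0.0169, edgeR) were higher and Gpatch4 lower (-0.21, adjusted p = 0.0153, edgeR), against 2.83% and 3.7% of all genes. In Cic-L-KO cortex 3 of the 9 were higher and 1 lower, against 21.4% and 21.9%. Rrnad1 (0.41, adjusted p = 4e-04, edgeR), Bcan (0.31, adjusted p = 1.22e-06, edgeR) and Nes (0.44, adjusted p = 0.00857, edgeR) were higher there, and Gpatch4 was lower (-0.18, adjusted p = 0.00464, edgeR). Bcan encodes brevican, a proteoglycan that the Hapln2 protein links to hyaluronan. In Cic-S-KO cerebellum none of the 9 was called. Of 22 listed genes of the node of Ranvier and its matrix, 19 were in the table; central components of the node on chromosome 1 were not analysed here. Among these 19 in cortex, 1 was higher and 2 were lower in Cic-S-KO, against 2.83% and 3.7% of all 16974 genes. The total of 3 was 0 with the GC correction and 1 without WT replicate 1 or 8 or Cic-S-KO replicate 6. The lower ones were Cntn1 (-0.11, adjusted p = 0.0225, edgeR), a paranodal adhesion protein, and Nrcam (-0.14, adjusted p = 0.0407, edgeR), which gathers sodium channels at the node. In Cic-L-KO cortex 4 of the 19 were higher and 7 lower, where 21.4% and 21.9% of all genes were. Acan, which encodes aggrecan, was among the higher ones with a log2 fold change of 1.59 (adjusted p = 9.63e-16, edgeR), and was at -0.22 in Cic-S-KO cortex (adjusted p = 0.130, edgeR). The Hapln2 paralog Hapln1 fell by 0.54 in Cic-L-KO cortex (adjusted p = 5.57e-07, edgeR) and was at -0.09 in Cic-S-KO (adjusted p = 0.513, edgeR). Hapln4, the cerebellar link protein gene, rose in Cic-L-KO cerebellum (0.32, adjusted p = 6.71e-06, edgeR) and in Cic-S-KO cerebellum (0.18, adjusted p = 0.0137, edgeR).

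Enpp6, Gsn and Serpinb1a were higher in Cic-S-KO in all 3 tissues. These are values of the kind that chose the 10 genes, and on which tissue each was picked is not recorded. Enpp6 encodes a phosphodiesterase that frees choline from lipids and marks oligodendrocytes that have just begun to differentiate. Cortex samples ranged from 7.83 to 13.8 CPM in WT (median 10.3), from 11.4 to 17.7 in Cic-S-KO (median 14.4) and from 8.17 to 9.90 in Cic-L-KO (median 8.79). Cic-S-KO overlapped WT and lay above all Cic-L-KO samples. On the log2 scale the difference was 0.38 (SE 0.105) in Cic-S-KO, while in Cic-L-KO Enpp6 fell by 0.28 (SE 0.104, adjusted p = 0.0321, edgeR). This decrease was near the threshold. It did not pass after the GC correction (adjusted p = 0.137, edgeR) or without any one of WT replicates 1, 3 and 4 and Cic-L-KO replicates 2, 4, 6 and 7 (adjusted p from 0.0533 to 0.0952, edgeR).

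In cerebellum Enpp6 had medians of 16.1 CPM in WT (13.1 to 20.3), 20.2 in Cic-S-KO (17.0 to 28.1) and 17.8 in Cic-L-KO (15.7 to 19.6). The groups overlapped, and the log2 fold changes were 0.34 (SE 0.099) and 0.12 (SE 0.096, adjusted p = 0.395, edgeR). In lung the gene was scarce, with medians of 0.837 CPM in WT (0.571 to 2.48), 2.03 in Cic-S-KO (1.11 to 2.63) and 0.862 in Cic-L-KO (0.464 to 1.34). There the Cic-S-KO log2 fold change was 0.89 (SE 0.255) and that of Cic-L-KO -0.28 (SE 0.271, adjusted p = 0.594, edgeR). WT replicate 5 held the highest WT value, and without it the Cic-L-KO value was 0.039 (adjusted p = 0.952, edgeR). Enpp6 (ENSMUSG00000038173.15, chr8:46986887-47096762, plus strand) overlaps 2 antisense gene models, so its counts are uncertain to that extent.

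Gsn encodes gelsolin, which severs and caps actin filaments and is abundant in oligodendrocytes as they spread and wrap. Across cortex samples it ranged from 49.6 to 70.0 CPM in WT (median 60.3), from 84.5 to 115 in Cic-S-KO (median 96.4) and from 65.8 to 81.1 in Cic-L-KO (median 71.1). Cic-S-KO lay above all WT and all Cic-L-KO samples, at a log2 fold change of 0.70 against WT (SE 0.067). Gsn also rose in Cic-L-KO cortex, by 0.27 (SE 0.065, adjusted p = 0.00172, edgeR), with 5 of 8 samples above all WT samples.

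In the other tissues the Gsn values of the knockouts lay close to each other. Cerebellar medians were 69.7 CPM in WT (63.2 to 85.7), 93.1 in Cic-S-KO (81.0 to 124) and 96.4 in Cic-L-KO (82.0 to 110.5). The log2 fold changes were 0.44 (SE 0.082) for Cic-S-KO and 0.45 for Cic-L-KO (SE 0.080, adjusted p = 0.000297, edgeR; 7 of 8 samples above all WT). In lung the medians were 519.7, 608.6 and 597 CPM for WT, Cic-S-KO and Cic-L-KO. The lung log2 fold changes were 0.17 (SE 0.050) and 0.16 (SE 0.050, adjusted p = 0.0659, edgeR), and 5 of 8 samples of either knockout exceeded all WT samples. The Cic-L-KO lung increase passed with DESeq2 (adjusted p = 0.0332) and without WT replicate 7 or Cic-L-KO replicate 1 (adjusted p = 0.0417 and 0.0296, edgeR). A gene model of unknown status overlaps Gsn (ENSMUSG00000026879.14, chr2:35256380-35307892, plus strand).

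Serpinb1a encodes an inhibitor of neutrophil elastase and related proteases. Its cortex level ranged from 5.04 to 9.01 CPM in WT (median 7.96), from 9.31 to 15.3 in Cic-S-KO (median 10.6) and from 6.67 to 10.8 in Cic-L-KO (median 8.40). The lowest Cic-S-KO sample was above the highest WT sample. Against WT, the log2 difference was 0.70 (SE 0.134) in Cic-S-KO, and Cic-L-KO stood at 0.18 (SE 0.132, adjusted p = 0.272, edgeR). Cerebellar medians were 19.2, 23.0 and 21.7 CPM for WT, Cic-S-KO and Cic-L-KO, with log2 fold changes of 0.34 (SE 0.092) and 0.19 (SE 0.089, adjusted p = 0.140, edgeR). Without Cic-L-KO replicate 6 the cerebellar Cic-L-KO increase passed (0.24, adjusted p = 0.0417, edgeR).

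Lung gave Serpinb1a its clearest separation. Its range there was 14.5 to 21.3 CPM in WT (median 16.6), 22.8 to 32.1 in Cic-S-KO (median 26.6) and 16.7 to 25.4 in Cic-L-KO (median 18.4). Its log2 fold change was 0.64 (SE 0.093) in Cic-S-KO, and Cic-L-KO stood at 0.19 (SE 0.094, adjusted p = 0.256, edgeR). Serpinb1a was the gene of the 8 measured in lung whose Cic-S-KO and WT samples did not overlap, where 1.51% of all 16695 genes were higher in this way. Neutrophil markers moved with it: 8 of 8 tested were higher in Cic-S-KO lung, with a median log2 fold change of 1.53 against -0.0010 over all genes, of which 9.99% were called higher. Their summed level ranged from 35.1 to 170.9 CPM in WT, from 92.0 to 337.9 in Cic-S-KO and from 40.1 to 189 in Cic-L-KO. Elane, Ly6g and Mpo were under 1 CPM on average in every lung group. In cortex the sum of all 10 neutrophil markers was at most 2.51 CPM in any sample, and in cerebellum at most 7.30. The part of neutrophils in the lung value was not tested. Reads could also be divided between Serpinb1a (ENSMUSG00000044734.16, chr13:32842092-32851185, minus strand) and its near copies. One of these, Serpinb1b, was at 0.509 CPM in WT lung and 0.719 CPM in Cic-S-KO lung, and was not called there (adjusted p = 0.280, edgeR).

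Other genes of oligodendrocytes were followed beside these 3. In Cic-S-KO cortex 6 of 22 genes of myelinating oligodendrocytes were higher and 1 was lower, against 2.83% and 3.7% of all genes. Their median log2 fold change was 0.22, against -0.00087 over all genes tested. The higher ones included Mag (0.51, SE 0.069, adjusted p = 9.45e-05, edgeR), the myelin-associated glycoprotein. Gal3st1, which makes the myelin lipid sulfatide, was also higher (0.37, adjusted p = 0.00450, edgeR). Anln, an actin-binding protein of myelin and of dividing cells, was lower (-0.36, adjusted p = 0.00878, edgeR). The total of 7 called genes was 5 to 9 with single libraries left out and 12 with DESeq2. Hapln2, with -1.28, thus lay below every gene of this list in Cic-S-KO cortex.

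Of 12 listed genes of newly formed oligodendrocytes 11 were in the table, and in Cic-S-KO cortex 0 of these 11 were called by edgeR, where 4 had an unadjusted p under 0.05, and 2 were called by DESeq2. Across all genes, edgeR called 2.83% higher and 3.7% lower in Cic-S-KO cortex, for this list and the next. Of 12 genes of oligodendrocyte precursors and of the lineage, 3 were higher: the transcription factor genes Sox10 (0.27, adjusted p = 0.00833, edgeR) and Nkx2-2 (0.44, adjusted p = 0.0369, edgeR), and C1ql1 (0.34, adjusted p = 0.0380, edgeR). This count was 0 after the GC correction and 1 without WT replicate 1 or 8 or Cic-S-KO replicate 2, 6 or 7. In Cic-S-KO cerebellum the newly formed oligodendrocyte genes Mycl (0.61, adjusted p = 6.52e-05, edgeR), Sirt2 (0.13, adjusted p = 0.0263, edgeR) and Itpr2 (0.20, adjusted p = 0.0319, edgeR) were higher. Others of that list were not called there. Of all genes, 4.34% were higher and 3.89% lower in Cic-S-KO cerebellum. The summed level of the 22 myelinating genes overlapped between genotypes, from 5523 to 7711 CPM in WT, 5943 to 9054 in Cic-S-KO and 5308 to 6983 in Cic-L-KO cortex. The summed level of 9 neuron markers ranged from 8107 to 8774 CPM in WT, 7210 to 7934 in Cic-S-KO and 5981 to 6916 in Cic-L-KO cortex. These ranges did not overlap. The part of cell composition in the values of Enpp6, Gsn, Serpinb1a and Hapln2 was not tested.

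In Cic-L-KO cortex the same 22 myelinating genes gave 1 higher and 4 lower, where 21.4% and 21.9% of all genes were, with a median log2 fold change of -0.0090. Tspan2 (-0.36, adjusted p = 0.000424, edgeR), Opalin (-0.48, adjusted p = 0.00372, edgeR), Cldn11 and Mal were the lower ones, and Gjb1 the higher one. Compared directly, 12 of the 22 were higher and 1 lower in Cic-S-KO cortex than in Cic-L-KO cortex, where 17.4% and 16.5% of all genes were called higher and lower. In cerebellum 5 of the 22 were higher in Cic-S-KO (4.34% of all genes higher, 3.89% lower) and 5 in Cic-L-KO (10.9% higher, 10.6% lower), and 0 were lower in either. The Cic-S-KO count there depended on single libraries: it was 8 without WT replicate 1, 1 without WT replicate 5 or Cic-S-KO replicate 6, and 2 or 3 without WT replicates 3, 4, 6 or 7 or Cic-S-KO replicates 1, 2, 4 or 7. The Cic-L-KO count was 3 without WT replicates 4, 5 or 6 or Cic-L-KO replicates 3, 4 or 5.

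**Figure D2:**
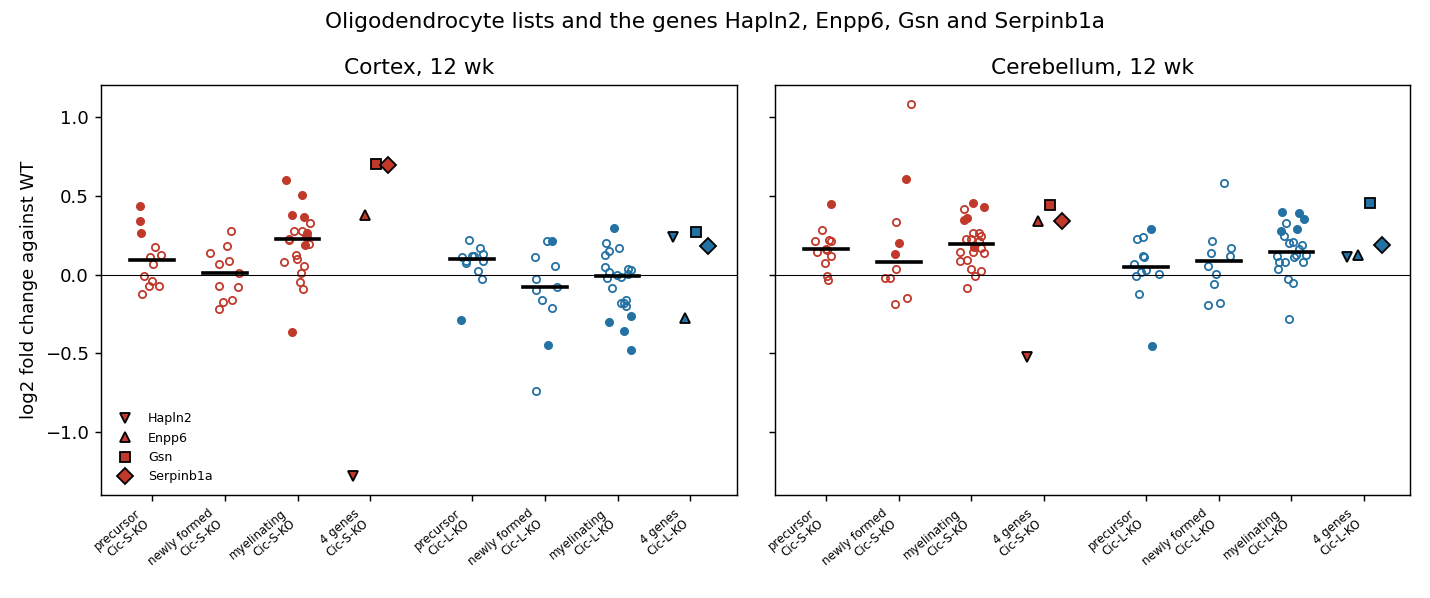
Log2 fold change against WT in cortex and cerebellum for genes of oligodendrocyte precursors, newly formed and myelinating oligodendrocytes (circles, 1 per gene; filled where the adjusted p was under 0.05; black lines, list medians) and for Hapln2, Enpp6, Gsn and Serpinb1a (black-edged symbols), in Cic-S-KO (red) and Cic-L-KO (blue). In Cic-S-KO cortex Gsn and Serpinb1a, both near 0.70, lie above the listed genes and Hapln2, at -1.28, below them.

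Sp7 was higher in the brain of both knockouts. It encodes osterix, a zinc finger transcription factor that drives the formation of osteoblasts. Cortical values ranged from 0.441 to 1.65 CPM in WT (median 1.31), from 2.87 to 4.87 in Cic-S-KO (median 3.56) and from 1.53 to 3.75 in Cic-L-KO (median 2.15). The lowest Cic-S-KO sample was above the highest WT sample, at 11 to 131 counts per sample in these 2 groups and a log2 fold change of 1.67 (SE 0.225). Sp7 rose in Cic-L-KO cortex by 1.09 (SE 0.224, adjusted p = 0.000231, edgeR), with 6 of 8 samples above all WT samples.

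Cerebellar Sp7 had medians of 1.38 CPM in WT (0.850 to 1.90), 2.89 in Cic-S-KO (1.07 to 4.08) and 2.62 in Cic-L-KO (1.89 to 3.77). The log2 fold changes were 1.11 (SE 0.210) for Cic-S-KO and 1.00 for Cic-L-KO (SE 0.204, adjusted p = 0.000886, edgeR). Of the samples, 6 of 7 and 7 of 8 lay above all WT samples. In lung Sp7 had 1 to 18 counts per sample and was below the filter. Sp7 (ENSMUSG00000060284.7) lies on the minus strand at chr15:102356606-102367182.

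Factors upstream and targets downstream of osterix in bone did not move as a group in Cic-S-KO brain. Of 13 tested in Cic-S-KO cortex, 1 was higher and 1 lower, against 2.83% and 3.7% of all genes. A single gene was called without any one of WT replicates 3, 5, 6 and 8 or Cic-S-KO replicates 2, 3, 5, 6 and 7. Dlx5, a homeobox gene upstream of Sp7 in bone, was higher (0.50, adjusted p = 0.0403, edgeR). Dmp1, a matrix protein of osteocytes, was lower in Cic-S-KO cortex (-0.59, SE 0.107, adjusted p = 0.00158, edgeR) and cerebellum (-0.47, SE 0.094, adjusted p = 0.00317, edgeR). The same gene was higher in Cic-L-KO cortex (0.89, SE 0.098, adjusted p = 2.13e-08, edgeR) and cerebellum (0.53, SE 0.089, adjusted p = 0.00011, edgeR). In Cic-L-KO cortex 5 of 13 were higher (21.4% of all genes) and 1 lower (21.9%), Atf4, and in Cic-L-KO cerebellum 4 of 12 were higher (10.9%). Col1a1 and Col1a2 were among the latter. Both also belong to the list of fibroblast and meningeal markers, of which 5 of 7 were higher there (10.9% of all genes). Besides these collagens, the higher ones were Aldh1a2 (0.77), Slc6a13 (0.70) and Dcn (0.20). The summed level of these markers, Col1a1 and Col1a2 included, was 158.8 to 194.3 CPM, against 114.3 to 149.8 CPM in WT. Their part was not tested. The Sp7 paralogs Sp3 and Sp4 fell in Cic-L-KO brain, Sp4 by 0.28 in cortex (adjusted p = 4.26e-05, edgeR) and by 0.39 in cerebellum (adjusted p = 0.000349, edgeR), and neither was called in Cic-S-KO brain.

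Col5a3 was higher in the cortex of both knockouts and not in their cerebellum. It encodes a chain of type V collagen, a minor collagen that controls the width of fibrils. Levels in cortex ranged from 0.888 to 1.43 CPM in WT (median 1.04), from 1.64 to 3.35 in Cic-S-KO (median 2.27) and from 1.79 to 2.68 in Cic-L-KO (median 2.17). Every sample of either knockout exceeded every WT sample, with 21 to 35 counts per WT sample. On the log2 scale the difference was 1.05 (SE 0.156) in Cic-S-KO, and Cic-L-KO stood at 0.98 (SE 0.153, adjusted p = 5.56e-06, edgeR).

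In cerebellum Col5a3 was more abundant, with medians of 7.53 CPM in WT (5.99 to 9.61), 6.49 in Cic-S-KO (5.57 to 7.45) and 7.06 in Cic-L-KO (5.85 to 8.71). The log2 fold changes were -0.20 (SE 0.108) and -0.075 (SE 0.103, adjusted p = 0.655, edgeR), and the groups overlapped. The Cic-L-KO effect differed between cortex and cerebellum by 1.05 (SE 0.177, adjusted p = 1.31e-05, edgeR). In lung Col5a3 had medians of 2.96, 3.39 and 2.87 CPM for WT, Cic-S-KO and Cic-L-KO. The Cic-S-KO log2 fold change there was 0.38 (SE 0.154). A small RNA gene model overlaps Col5a3 (ENSMUSG00000004098.7, chr9:20770050-20815067, minus strand).

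Other fibrillar collagens were higher with Col5a3 in cortex. In Cic-S-KO cortex 4 of 8 tested were higher and 0 lower, against 2.83% and 3.7% of all genes, with a median log2 fold change of 0.44. The 4 were Col2a1 (1.14, adjusted p = 0.000551, edgeR), Col11a2 (0.42, adjusted p = 0.00804, edgeR), Col27a1 (0.39, adjusted p = 0.0255, edgeR) and Col5a1 (0.65, adjusted p = 0.0348, edgeR), which encodes the main chain of type V collagen. The count was 2 with the GC correction and without WT replicate 1 or Cic-S-KO replicate 4, 5 or 6. In Cic-L-KO cortex 6 of the 8 rose, where 21.4% of all genes did, with a median of 0.65. They included Col27a1 (0.82, adjusted p = 1.5e-07, edgeR), with the smallest p, and Col11a1 (1.37, adjusted p = 3.86e-05, edgeR). Col5a1, like Col5a3, did not rise in cerebellum: it fell in Cic-L-KO (-0.51, adjusted p = 0.000193, edgeR) and was at -0.07 in Cic-S-KO. Of 7 fibroblast and meningeal markers tested in cortex, 0 were called in Cic-S-KO and 2 were lower in Cic-L-KO (21.9% of all genes). Their summed level was 44.7 to 104.4 CPM in WT, 50.4 to 65.4 in Cic-S-KO and 41.5 to 96.7 in Cic-L-KO cortex. Medians in WT, Cic-S-KO and Cic-L-KO cortex were 31.7, 21.5 and 424.8 CPM for the sum of 7 choroid plexus markers. For 10 endothelial markers they were 304, 304.7 and 359.6 CPM, and the ranges of both sums overlapped. The part of cell content in the collagen values was not tested.

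Slc24a2 was lower in cortex and higher in cerebellum, in both knockouts. It encodes an exchanger of neurons that expels calcium in return for sodium and carries potassium along. Cortex samples ranged from 718.6 to 906 CPM in WT (median 773.2), from 565.9 to 705 in Cic-S-KO (median 693.7) and from 519.1 to 633.5 in Cic-L-KO (median 562.4). Every sample of either knockout lay below every WT sample. Against WT, the log2 difference was -0.26 (SE 0.056) in Cic-S-KO. Slc24a2 fell in Cic-L-KO by 0.48 (SE 0.054, adjusted p = 5.16e-08, edgeR).

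In cerebellum Slc24a2 ranged from 465.1 to 563.6 CPM in WT (median 502.6), from 549 to 668.2 in Cic-S-KO (median 587.6) and from 582.7 to 719.4 in Cic-L-KO (median 639). The whole Cic-L-KO group and 6 of 7 Cic-S-KO samples were above the highest WT value. Its log2 fold change was 0.25 (SE 0.052) in Cic-S-KO, and Cic-L-KO stood at 0.35 (SE 0.050, adjusted p = 2.17e-05, edgeR). The Cic-L-KO effect differed between the regions by -0.82 (SE 0.076, adjusted p = 1.13e-11, edgeR). In lung Slc24a2 was near the limit of detection, at 3 to 50 counts per sample, and its Cic-S-KO log2 fold change was 0.14 (SE 0.303). The highest of these values was in Cic-S-KO replicate 5, the library that stood apart in brain markers, and without it the fold change was -0.030. The part of these markers was not tested. Its paralog Slc24a3 was likewise lower in Cic-S-KO cortex (-0.19, adjusted p = 0.0339, edgeR) and higher in Cic-S-KO cerebellum (0.23, adjusted p = 0.0362, edgeR). With loss of the long isoform it passed in cerebellum (0.21, adjusted p = 0.0288, edgeR) and not in cortex (-0.12, adjusted p = 0.0712, edgeR). Of 9 neuron markers in cortex, 0 were higher and 3 lower in Cic-S-KO (2.83% and 3.7% of all genes), with a median log2 fold change of -0.018. In Cic-L-KO cortex 0 were higher and 6 lower (21.4% and 21.9%), with a median of -0.28. In cerebellum, where Slc24a2 was higher in both knockouts, 2 were higher and 5 lower in Cic-S-KO (4.34% and 3.89%) and 2 higher and 4 lower in Cic-L-KO (10.9% and 10.6%). Their summed level in cerebellum had medians of 6279, 5395 and 5779 CPM for WT, Cic-S-KO and Cic-L-KO. The part of neuron content in the Slc24a2 value was not tested. Slc24a2 (ENSMUSG00000037996.17) lies on the minus strand at chr4:86983124-87230477.

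Prrt4 rose in the brain of Cic-L-KO mice, and its medians were above WT in all tissues of both knockouts. It encodes a transmembrane protein with a proline-rich stretch. Across cortex samples it ranged from 2.05 to 3.15 CPM in WT (median 2.63), from 2.77 to 5.98 in Cic-S-KO (median 3.50) and from 4.40 to 6.36 in Cic-L-KO (median 5.02). The Cic-L-KO samples, not those of Cic-S-KO, were clear of all WT samples. On the log2 scale the difference was 0.61 (SE 0.145) in Cic-S-KO, and Cic-L-KO stood at 0.99 (SE 0.139, adjusted p = 1.08e-06, edgeR). In cerebellum the medians were 3.95, 5.91 and 5.85 CPM for WT, Cic-S-KO and Cic-L-KO. The cerebellar log2 fold changes were 0.51 (SE 0.112) and 0.53 (SE 0.108, adjusted p = 0.000891, edgeR), with 5 of 7 and 7 of 8 samples above all WT samples.

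Lung Prrt4 had medians of 3.11 CPM in WT (2.71 to 4.09), 4.73 in Cic-S-KO (3.29 to 5.91) and 4.28 in Cic-L-KO (2.84 to 5.72). The log2 fold changes were 0.54 (SE 0.144) and 0.42 (SE 0.146, adjusted p = 0.0905, edgeR), and without Cic-L-KO replicate 2 the latter passed (adjusted p = 0.0421, edgeR). Of the paralogs, Prrt1 was higher in Cic-L-KO cortex (0.33, adjusted p = 2.26e-07, edgeR), and Prrt3 was slightly lower there (-0.14). Prrt4 (ENSMUSG00000079654.3) lies on the minus strand at chr6:29169232-29179584.

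Arl5a was slightly lower in Cic-S-KO in each tissue. It encodes a small GTPase of the ARF-like family at the trans-Golgi network. Its cortex level ranged from 96.3 to 108.7 CPM in WT (median 106.3), from 83.6 to 99.5 in Cic-S-KO (median 95.4) and from 99.4 to 113.8 in Cic-L-KO (median 106). The log2 fold changes were -0.155 (SE 0.038) for Cic-S-KO and 0.02 for Cic-L-KO (SE 0.036, adjusted p = 0.709, edgeR). The exons of Arl5a hold 40.3% GC, and with the GC correction the cortex values became -0.088 and 0.11 (adjusted p = 0.00853 for Cic-L-KO, edgeR).

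Cerebellar Arl5a had medians of 189.6 CPM in WT (161.4 to 209.5), 166.1 in Cic-S-KO (139 to 191.2) and 167 in Cic-L-KO (148.4 to 182.7). Against WT, the log2 difference was -0.23 (SE 0.063) in Cic-S-KO, while Arl5a fell by 0.19 with loss of the long isoform (SE 0.061, adjusted p = 0.0229, edgeR). The latter did not pass with the GC correction (-0.10, adjusted p = 0.179, edgeR), with no filter on low counts (adjusted p = 0.0757, edgeR), or without WT replicate 6 or Cic-L-KO replicate 3 (adjusted p = 0.0561 and 0.0529, edgeR). In lung the medians were 140.6, 121.8 and 137 CPM, with log2 fold changes of -0.18 (SE 0.042) for Cic-S-KO and -0.032 for Cic-L-KO (SE 0.042, adjusted p = 0.717, edgeR). The paralog Arl5b was lower in Cic-L-KO cortex (-0.27) and cerebellum (-0.24). Arl5a (ENSMUSG00000036093.7) lies on the minus strand at chr2:52397951-52424901.

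**Figure D3:**
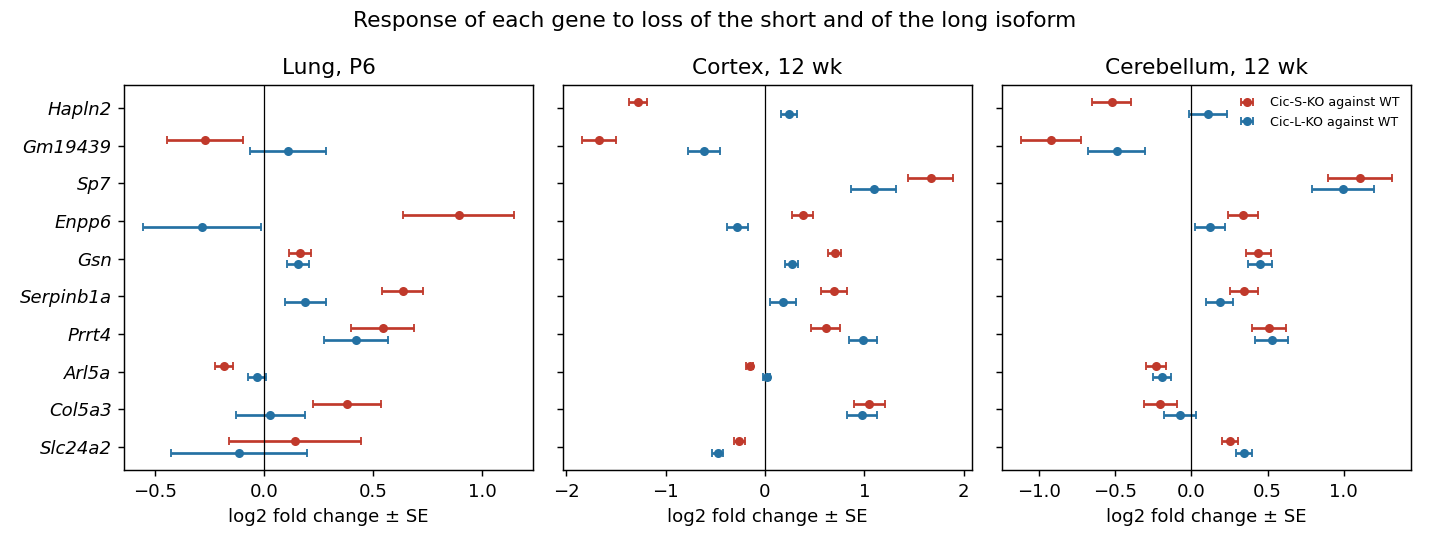
Log2 fold change against WT with its standard error for each of the 10 genes in lung, cortex and cerebellum, in Cic-S-KO (red) and Cic-L-KO (blue), from the edgeR fit of each tissue; Hapln2 and Sp7 were below the count filter in lung. In cortex Hapln2 and Enpp6 have opposite signs in the 2 knockouts, while Col5a3 and Slc24a2 lie on the same side of 0 in both.

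Set against the Cic-L-KO response, the 10 genes were not uniformly a response to the short isoform. In cortex 8 of the 10 were called in Cic-L-KO (5 higher, 3 lower), where 43.2% of all 16974 genes tested were called. In cerebellum 5 of 10 were called (4 higher, 1 lower), against 21.5% of 16643 genes. In lung 0 of the 8 genes measured were called by edgeR, against 4.89% of 16695 genes, and DESeq2 called 1, Gsn. Gsn and Prrt4 had an unadjusted p under 0.05 there (0.004 and 0.00723). The comparisons with WT share the WT samples, so the knockouts were also compared with each other directly. That comparison holds the Cic-S-KO libraries on which the genes were picked, so its values and counts are a description. In cortex Enpp6 (log2 difference 0.66) and Gsn (0.43) were higher, and Hapln2 (-1.52) and Gm19439 (-1.06) lower, in every Cic-S-KO sample than in every Cic-L-KO sample. Across all genes 5.36% and 5.26% were higher and lower in that way. The cortex difference between the knockouts was 0.075 for Col5a3 (SE 0.147), -0.38 for Prrt4 (SE 0.139) and 0.22 for Slc24a2 (SE 0.055), with Cic-L-KO farther from WT for the last pair. In cerebellum 0 of the 10 genes separated the knockouts fully, against 2.75% of all genes, and Gsn (-0.013), Prrt4 (-0.017) and Arl5a (-0.037) were nearly equal in both.

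Known targets of Capicua repression were followed as the other genes of the pathway. Of 16 tested, 1 was higher and 0 were lower in Cic-S-KO cortex (Vgf, 0.20, adjusted p = 0.0433, edgeR), against 2.83% and 3.7% of all genes. The counts were the same in Cic-S-KO cerebellum (Shc3, 0.44, adjusted p = 0.00186, edgeR), against 4.34% and 3.89%. In Cic-L-KO cortex 10 were higher and 2 lower, where 21.4% and 21.9% of all genes were, and in Cic-L-KO cerebellum 6 were higher and 1 lower, against 10.9% and 10.6%. In lung 15 were tested, and 1 was higher in Cic-S-KO (9.99% of all genes) and 3 in Cic-L-KO (2.62%). Maff, a small bZIP factor, rose most in both brain regions of Cic-L-KO, with log2 fold changes of 2.10 in cortex (adjusted p = 3.49e-10, edgeR) and 2.51 in cerebellum (adjusted p = 1.53e-10, edgeR). Etv4, an ETS factor of the growth factor response, rose by 1.09 in Cic-L-KO cortex (adjusted p = 5.79e-12, edgeR) and by 0.31 in cerebellum (adjusted p = 0.000409, edgeR). Lung Etv4 rose by 0.74 with loss of the short isoform (adjusted p = 1.26e-05, edgeR) and by 0.40 with loss of the long one (adjusted p = 0.00792, edgeR), and the knockouts differed by 0.34, with Cic-S-KO higher (adjusted p = 0.00988, edgeR). The median log2 fold change of the 16 was -0.059 in Cic-S-KO cortex and 0.40 in Cic-L-KO cortex, against -0.00087 and 0.011 over all genes.

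In Cic-S-KO cortex itself, 4 of the 10 genes lay wholly above WT and 3 wholly below, where 0.371% and 0.524% of all genes did. The choice of the genes rested on Cic-S-KO libraries, so the count is a description. In Cic-S-KO cerebellum 0 of the 10 separated from WT fully, against 1.24% of all genes. In Cic-L-KO cortex 2 lay wholly above WT (Prrt4 and Col5a3) and 1 wholly below (Slc24a2), against 6% and 7.25%, and in Cic-L-KO cerebellum 1 lay wholly above (Slc24a2), against 2.31%. By the test of the interaction over 46 samples, 4 of the 10 genes responded differently to Cic-L-KO in the 2 brain regions, against 23% of 18032 genes. The effect was more positive in cortex (11.5% of all genes) for Col5a3 and Arl5a (0.21, SE 0.073, adjusted p = 0.0285, edgeR) and more negative (11.5%) for Slc24a2 and Enpp6 (-0.40, SE 0.145, adjusted p = 0.0399, edgeR). The difference for Enpp6 did not pass with no filter on low counts (adjusted p = 0.0988, edgeR). Prrt4 missed the threshold (0.46, SE 0.177, adjusted p = 0.0520, edgeR). With same-numbered cortex and cerebellum samples taken as a pair these 4 were called too, and Prrt4 passed (adjusted p = 0.0238, edgeR).

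How the 10 genes varied together was described over the 46 brain samples, with the mean of each region subtracted from log2 CPM. Over the 45 pairs, Pearson's r ran from -0.672 for Gm19439 with Gsn to 0.804 for Gsn with Serpinb1a. These values contain the genotype differences by which the genes were picked. With the mean of each genotype in each region subtracted instead, r ran from -0.443 for Prrt4 with Arl5a to 0.692 for Enpp6 with Gsn. Enpp6, Gsn and Serpinb1a then stayed together (0.605 to 0.692). Hapln2 turned from a negative r with Gsn (-0.457) and Enpp6 (-0.522) across genotypes to a positive one within groups (0.503 and 0.388). Hapln2 with Gm19439 was at 0.716 across genotypes and 0.318 within groups. The samples share a batch label, and the 2 regions may come from the same mice. No p is given.

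**Figure D4:**
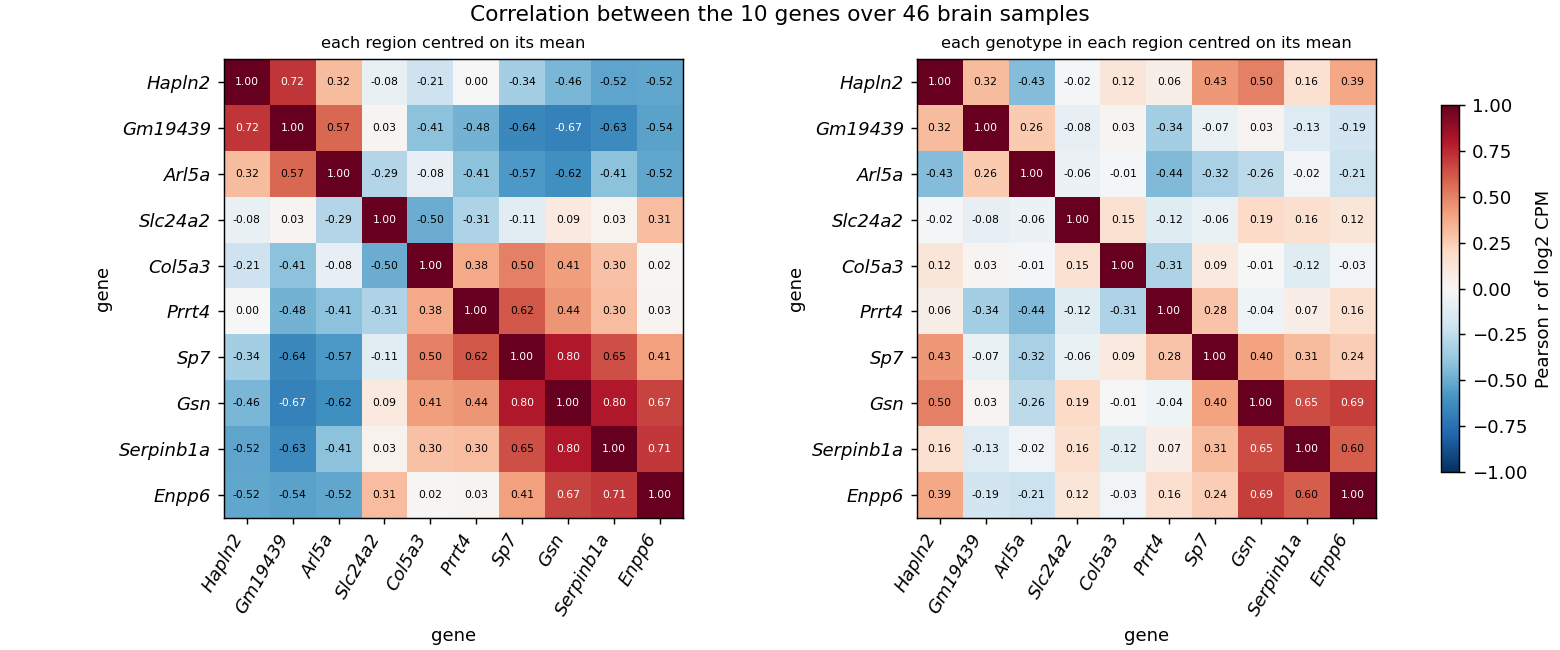
Pearson correlation of log2 CPM between the 10 genes over 46 brain samples, after the mean of each region (left) or of each genotype in each region (right) was subtracted. Hapln2 is negatively related to Gsn on the left (-0.457) and positively on the right (0.503), while Enpp6, Gsn and Serpinb1a are positively related in both.

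Among 14042 genes measured in both brain regions, those most like Gsn over the 46 samples (region mean subtracted) included Itgb4 (r = 0.898) and Mag (0.881). All values of r in this paragraph contain the genotype differences by which the genes were picked. For Serpinb1a they were Gsn (0.804), Cdc42ep2 (0.802) and Mag (0.789), and for Enpp6 Slc48a1 (0.841), Pdlim2 (0.836) and Gpr37 (0.819). The genes most like Hapln2 were Fbxw15 (0.833), Gm42756 (0.791) and Scrg1 (0.788), and those most like Gm19439 were Hapln2 (0.716), Plin4 (0.692) and Sgk1 (0.679). Sp7 was nearest to Adamtsl4 (0.854), Tmprss5 (0.801) and Dusp15 (0.799), and Col5a3 to Hps5 (0.737), Cic (0.725) and Sirt4 (0.724). Total Cic RNA, like Col5a3, was higher in the cortex of both knockouts, so their r contains that difference. Prrt4 was nearest to Ntn1 (0.826), Cyb5r3 (0.821) and Slc38a10 (0.819), Slc24a2 to Sort1 (0.846), Serpini1 (0.844) and Sod2 (0.844), and Arl5a to Bcl6 (0.780), Btbd3 (0.780) and Olfm3 (0.773).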

How the data were processed

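The deposited values are raw counts, whole numbers of reads for each gene identifier in each of 70 samples, as read from the file headers and values. RNA was isolated with a miRNeasy kit and libraries were polyA-selected, per the labels' protocols. STAR 2.7 and GRCm38.p6 are named in the submitters' processing notes; the counter, annotation and use of strand are not given in the sources used here. Of 50789 identifiers, 50725 matched GENCODE M21 (GRCm38) and 64 did not. Genes of chromosome 1 were not analysed here. Each tissue was fitted with edgeR 4.0.16 in R 4.3.3 (filterByExpr, TMM, robust quasi-likelihood, 3 genotypes; 16695 genes in lung, 16974 in cortex, 16643 in cerebellum), with Benjamini-Hochberg adjustment. The interaction fit held 46 brain samples. Standard errors were derived from the F statistic. DESeq2 1.42.0 and other settings were alternatives. A planned lung test of Cic-S-KO for 5 of the genes was dropped, since it is not recorded on which tissue each gene was picked. Correlations used a prior count of 2 and genes with a mean of at least 1 CPM. The scripts were tested on simulated data. Replicates differed: 0 of 238 pairs within groups were identical, and chi-square per degree of freedom was at least 3.93. The 10 genes and the gene lists were chosen with earlier results of these data known. Named genes are the 10, up to 4 per list with the smallest p in the contrast described, the paralogs, the defining markers and the 3 genes most alike per gene; a gene that this rule names is not reported here. Col11a1, Col1a1 and Col1a2 in cortex, Acan in Cic-S-KO, Atf4, Dmp1 across contrasts, Col5a1 in cerebellum, Slc24a3, Nrcam, Etv4 in cerebellum and lung and the genes near Hapln2 were named after their values were seen, where the rule did not already name them.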

Additional observations from a re-analysis of the deposited data

Results flagged for a closer look

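Of 90 group values (10 genes in 9 groups), 5 held a sample standing apart from the others, where chance gives 4.5. Hapln2 in Cic-L-KO cortex replicate 4 was at 14.1 CPM, against 19.1 to 22.4 in the others. Enpp6 in WT lung replicate 5 was at 2.48 CPM, against 0.571 to 1.08, and this WT sample lay above 7 of the 8 Cic-S-KO samples. Arl5a in Cic-S-KO cortex replicate 6 was at 83.6 CPM, against 92.7 to 99.5. The remaining pair rests on few reads: Hapln2 in Cic-S-KO lung replicate 5 (0.360 CPM, 13 counts), the library that stood apart in brain markers, and Sp7 in Cic-S-KO lung replicate 2 (0.664 CPM, 16 counts).

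The Cic-L-KO effect on 4 genes differed between cortex and cerebellum by the interaction test: Col5a3 by 1.05, Arl5a by 0.214, Slc24a2 by -0.821 and Enpp6 by -0.398 on the log2 scale.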

How the results depend on the processing

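Of 578 values of single genes under other settings, 560 kept their direction and their side of the threshold or moved by less than the spread between samples, and with single libraries left out 852 of 876 did. Counts of the 10 genes called in Cic-L-KO stayed within 7 to 8 in cortex, 4 to 6 in cerebellum and 3 to 5 for the difference between regions; in lung the count was 1 with DESeq2 and with the replicate block. Same-numbered samples of different genotypes were not taken as pairs (correlations of -0.386 to 0.347, 22 of 46 over 0.1). Those of cortex and cerebellum had correlations over 0.1 in 7 of 7 Cic-S-KO, 7 of 8 WT and 2 of 8 Cic-L-KO pairs, and the library names of both Cic-S-KO brain groups skip number 2, so the regions may share animals, which the labels do not state; the test between regions took the samples as independent. With the replicate block, all genes called numbered 1285 for lung of Cic-L-KO, 627 for Cic-S-KO cortex and 591 for Cic-S-KO cerebellum, and Prrt4 passed in the comparison of regions (adjusted p = 0.0238, edgeR). The count of genes called in Cic-S-KO cortex, 1108, was 732 with no filter, 654 with only the genotypes compared and 449 after the GC correction, an alternative chosen after seeing the data, like the covariate of Y-linked expression. With single libraries left out there were 461 to 1536 such genes, 883 to 1851 in Cic-S-KO cerebellum, 1891 to 3340 in Cic-S-KO lung, 517 to 945 in Cic-L-KO lung, 6759 to 7264 in Cic-L-KO cortex and 2949 to 4030 in Cic-L-KO cerebellum; the counts of the 10 genes were 0 to 1 for lung of Cic-L-KO. Some values that were not called changed sign: after the GC correction Arl5a (0.037) and Col5a3 (-0.034) in Cic-L-KO lung; the Serpinb1a regional difference with a mean of at least 50 counts (0.024), the block (0.0071) and the covariate (0.0062); and, over all fits without one library, Slc24a2 in Cic-S-KO lung (-0.030 to 0.26) and, in Cic-L-KO lung, Enpp6 (-0.40 to 0.039), Col5a3 (-0.036 to 0.089) and Slc24a2 (-0.28 to 0.031). The causes were not tested. Depth limits Hapln2, Sp7 and Slc24a2 in lung.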
